A study of Mus musculus with 6 samples.

Results

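Heat shock proteins are the chaperones of the cell, and the 10 genes described here encode the main cytosolic, endoplasmic reticulum (ER) and mitochondrial forms. They were taken by name from the 20822 genes of a table of unique molecular identifiers (UMIs), that is, of single captured mRNA molecules. All 10 genes were found in the table. The list was selected on results of these same counts, namely the levels by cell type, replicate and genotype, so those levels are given as a description. The cells were isolated from retinas at postnatal day 14 of oxygen-induced retinopathy (OIR), a model in which mouse pups breathe high oxygen and are then returned to room air. Both groups went through OIR and both were enriched for endothelial cells (ECs) with beads that bind CD31. One group, eNOS+/+, consisted of C57BL/6J mice with intact endothelial nitric oxide synthase. The other group, eNOS-/-, was homozygous for the Nos3 knockout allele on C57BL/6J in all tissues, so that effects of the gene in ECs and elsewhere cannot be told apart. Each genotype had 3 replicates of 3 to 5 pooled retinas, so that no value belongs to a single animal.

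Chaperones of the HSP70 class (Hspa1a, Hspa1b, Hspa8 and Hspa5) bind exposed hydrophobic stretches of unfolded proteins, and co-chaperones of the HSP40 class such as Dnajb1 deliver the substrates and start the ATP cycle. HSP90 proteins (Hsp90aa1 and Hsp90ab1) take over partly folded clients such as kinases and steroid receptors, Hspb1 is a small heat shock protein that holds unfolded proteins and binds actin filaments, and Hspd1 with Hspe1 form the folding chamber of mitochondria. Hspa1a, Hspa1b, Dnajb1 and Hsp90aa1 are classical targets of heat shock factor 1, whereas Hspa8 and Hsp90ab1 are the constitutive forms. Hspa5 (BiP) is the HSP70 of the ER lumen and a target of the unfolded protein response.

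UMIs were summed over the cells of each cell type in each replicate, and levels are counts per 1000000 UMIs of such a sum (CPM). The authors' annotation divides the cells into Tip, Structural and Proliferative ECs, mural cells, immune cells, neuroglia, neurons, Optc+ cells, rods and cones. Sums of all ECs held 488367 to 2425603 UMIs, whereas several sums of other cell types held fewer than 20000 UMIs and were left out of per-replicate values. Each marker used was highest in the cell type it marks for ECs, Tip ECs, Proliferative ECs, rods, cones, mural cells and immune cells. The exceptions were Apoe (neuroglia, highest in immune cells), Syt1 and Tubb3 (neurons, highest in cones) and Col2a1 (Optc+ cells, highest in neuroglia). Red blood cell markers, 4 globin genes and Alas2, summed to 24.3 CPM in ECs of eNOS+/+ replicate 1 and to 2234 to 8529 CPM in ECs of the other replicates. B cell markers summed to 22.8 to 98.2 CPM in eNOS+/+ ECs and to 121 to 164 CPM in eNOS-/- ECs, without overlap, and the part of this in the genotype comparisons was not tested. Both groups of markers lay mainly in Structural ECs. B cell markers were at 47.9 to 307 CPM there, and at most at 7.01 CPM in Tip and 4.83 CPM in Proliferative ECs. Red blood cell markers reached 22522 CPM in Structural ECs, 400 CPM in Tip ECs and 126 CPM in Proliferative ECs. No cell barcode was found in more than 1 replicate of a genotype, and 3 barcodes occurred in both genotypes. The 5925 EC barcodes formed 4426 families that agreed in the first 11 of 12 bases within a replicate, so that some barcodes may stand for the same cell. All 613 cells of eNOS+/+ replicate 2 carry the library name of eNOS+/+ replicate 1 in another column of the annotation. Nos3 itself ranged from 19.4 to 36.6 CPM in eNOS+/+ ECs and from 16.1 to 32.8 CPM in eNOS-/- ECs. Whether the 3' ends that were sequenced lie within the deleted part of Nos3 is not given in the sources used here, so these values do not check the genotype labels.

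**Figure D1:**
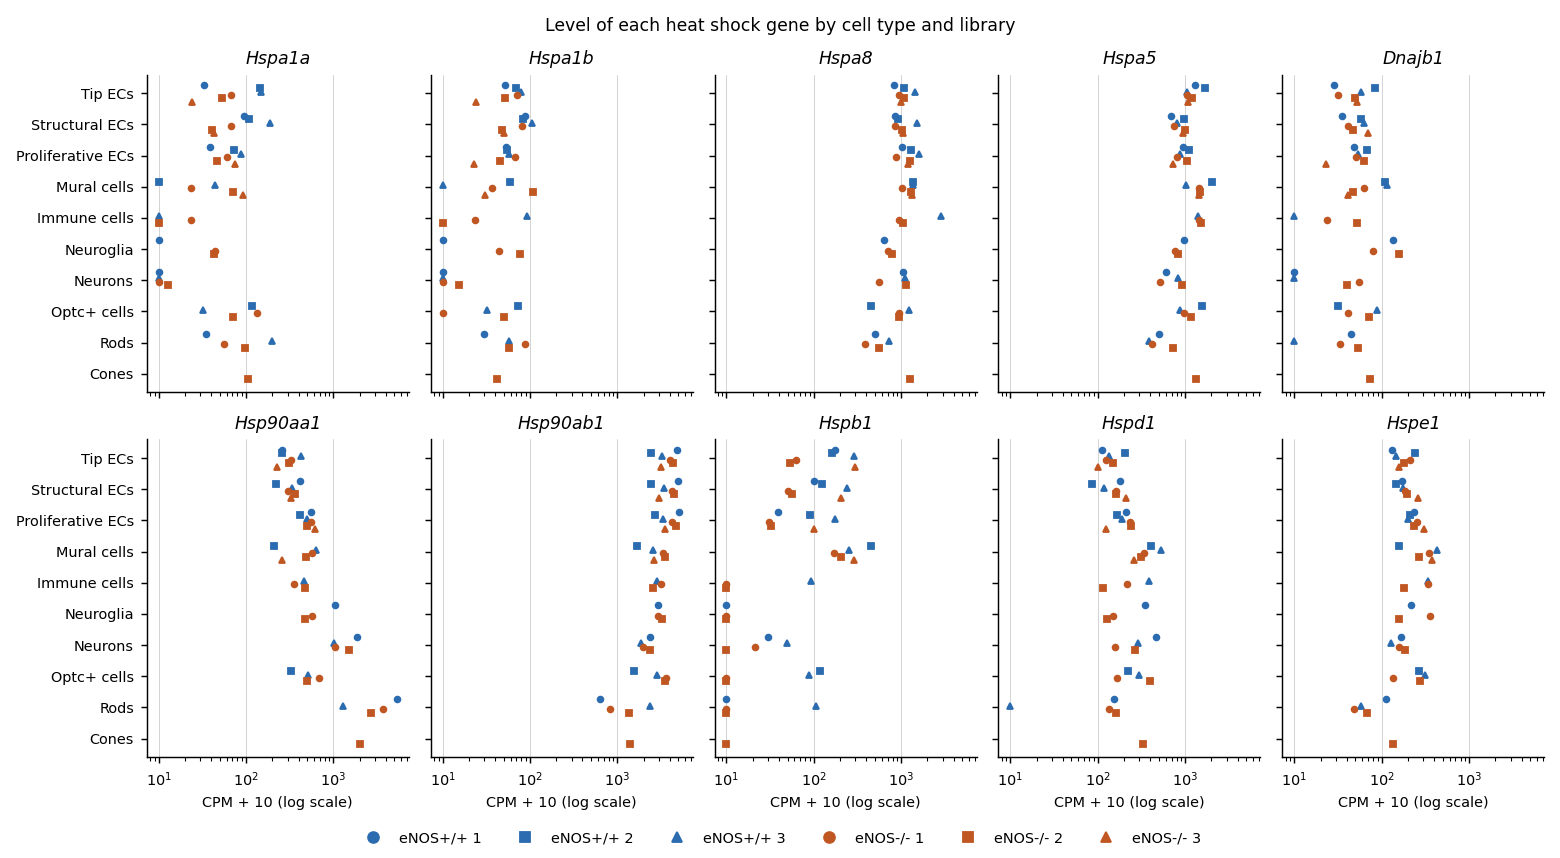
Level of each of the 10 genes (CPM plus 10, log scale) in the 10 cell types, 1 point for each replicate whose sum held at least 20000 UMIs (blue, eNOS+/+; orange, eNOS-/-; circle, square and triangle for replicates 1, 2 and 3). The mean of Hsp90aa1 was highest and that of Hsp90ab1 lowest in rods, and Hspb1 was at 0 CPM in neuroglia and at 41.0 CPM or more in every sum of Tip or Structural ECs.

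The cytosolic HSP90 genes were turned in their order between cell types. Hsp90ab1 was the main HSP90 mRNA of ECs, with 3768 ± 915 CPM (SD, n = 6) in all ECs against 357 ± 41.2 CPM for the inducible form Hsp90aa1. In rods the order was turned: Hsp90aa1 was at 5323, 1286, 3713 and 2697 CPM in eNOS+/+ replicates 1 and 3 and eNOS-/- replicates 1 and 2, and Hsp90ab1 at 622, 2381, 806 and 1355 CPM. Hsp90aa1 exceeded Hsp90ab1 in 3 of these 4 sums, and eNOS+/+ replicate 3 was the exception.

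Expressed as a share of the UMIs of both genes, which are counted within the same sum and therefore do not depend on its depth, Hsp90aa1 made up 8.89% ± 1.26 (SD, n = 6) in all ECs, with a range of 7.55% to 10.2%. In rods the share was 89.5% in eNOS+/+ replicate 1 (exact binomial 95% interval 87.7% to 91.2%, counting error only), 82.2% in eNOS-/- replicate 1 and 66.6% in eNOS-/- replicate 2. In eNOS+/+ replicate 3 it was 35.1% (24.5% to 46.8%), from a sum of only 20998 UMIs. The mean over the rod sums was 68.3% ± 24.2 (SD, n = 4). In the small rod sums left out above, 5 of 6 HSP90 UMIs in eNOS+/+ replicate 2 and 34 of 38 in eNOS-/- replicate 3 were Hsp90aa1. Neurons lay between, at 38.1% ± 4.39 (SD, n = 4) with a range of 34.5% to 43.9%, and their range overlapped neither that of ECs nor, apart from eNOS+/+ replicate 3, that of rods. Cones had 136 Hsp90aa1 and 75 Hsp90ab1 UMIs over all replicates, a share of 64.5% (57.6% to 70.9%). Mural cells (13.0%), immune cells (13.0%), Optc+ cells (15.1%) and neuroglia (18.2%) had means close to each other, with overlapping ranges. Since cell types were assigned from these UMIs, no test between them was made.

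**Figure D2:**
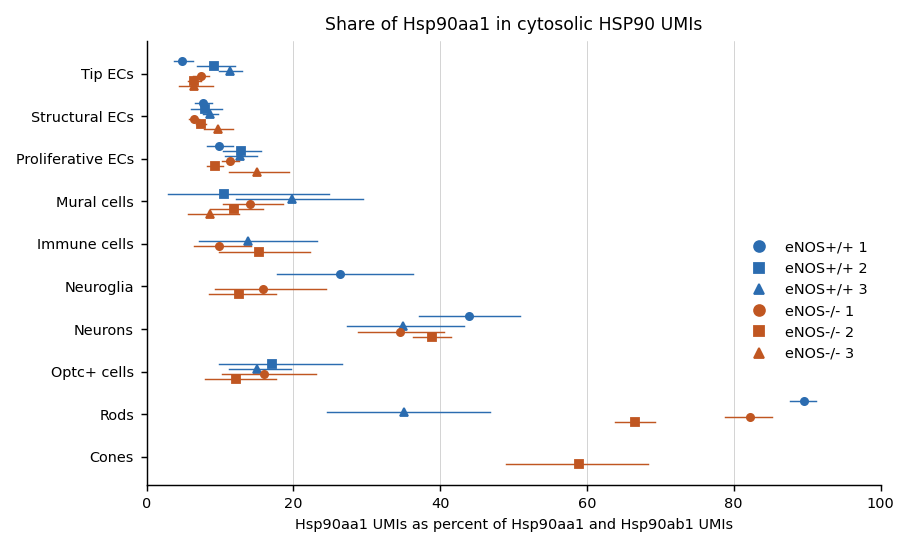
Hsp90aa1 UMIs as a percent of all Hsp90aa1 and Hsp90ab1 UMIs in each cell type, 1 point for each replicate whose sum held at least 20000 UMIs, with exact binomial 95% intervals. Every EC sum lies at or below 15.0%, neurons lie between 34.5% and 43.9%, and 3 of 4 rod sums lie between 66.6% and 89.5%.

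Endothelial markers (Pecam1, Cdh5, Cldn5, Kdr and Tie1, 5 of 5 in the table) were highest in the rod sum with the lowest Hsp90aa1 share. Their summed level in rods was 597, 977 and 975 CPM in eNOS+/+ replicate 1 and eNOS-/- replicates 1 and 2, and 2429 CPM in eNOS+/+ replicate 3, against 4215 to 5061 CPM in all ECs. Rod markers summed to 42936, 39807 and 32722 CPM in eNOS+/+ replicate 1 and eNOS-/- replicates 1 and 2. In eNOS+/+ replicate 3 they summed to 23050 CPM. The rod marker sums fell in the same order as the Hsp90aa1 shares, 89.5%, 82.2%, 66.6% and 35.1%. Endothelial levels were similar in the rods of eNOS-/- replicates 1 and 2, at shares of 82.2% and 66.6%. The rods of eNOS+/+ replicate 3 thus held the most endothelial and the fewest rod UMIs of the 4 sums, and the part of this in the HSP90 share was not tested. Without eNOS+/+ replicate 3, the mean share in rods was 79.4% ± 11.7 (SD, n = 3) and the mean Hsp90aa1 level 3911 CPM in place of 3255 CPM.

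Hspa8, Hspa5 and Hspe1 were lower in rods than in ECs. Relative to all ECs of the same replicate, Hspa8 was at 0.437 to 0.563 times and Hspa5 at 0.428 to 0.685 times the endothelial level, and Hspe1 at 0.192 to 0.619 times. Hsp90aa1 was between 3.399 (eNOS+/+ replicate 3) and 13.2 (eNOS+/+ replicate 1) times as high in rods as in ECs. None of the 10 genes passed a limit of 4-fold in all 4 replicates with a rod sum, which 6.44% of the 7365 genes compared did towards rods and 3.6% towards ECs.

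The inducible HSP70 genes Hspa1a and Hspa1b are neighbours on chromosome 17 (GRCm38), at 34969190 to 34972156 and 34956436 to 34959238, both on the minus strand and with 9951 bases between them. Their RefSeq promoter windows (GRCm38.p6, 250 bases before to 50 after the annotated start) differ at 4 of 300 bases and are shown because both genes were found in the same cells. Capitals mark a pair of inverted heat shock element units, GAANNTTC or TTCNNGAA on either strand, which 15.1% of 32851 promoters of this length hold.
Hspa1a, chr17:34972107-34972406, minus strand: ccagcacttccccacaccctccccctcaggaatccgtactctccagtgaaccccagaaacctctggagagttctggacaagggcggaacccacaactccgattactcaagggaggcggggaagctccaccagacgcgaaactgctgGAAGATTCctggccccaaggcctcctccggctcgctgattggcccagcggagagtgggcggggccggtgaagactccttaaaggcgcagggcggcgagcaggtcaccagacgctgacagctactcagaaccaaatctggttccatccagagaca
Hspa1b, chr17:34959189-34959488, minus strand: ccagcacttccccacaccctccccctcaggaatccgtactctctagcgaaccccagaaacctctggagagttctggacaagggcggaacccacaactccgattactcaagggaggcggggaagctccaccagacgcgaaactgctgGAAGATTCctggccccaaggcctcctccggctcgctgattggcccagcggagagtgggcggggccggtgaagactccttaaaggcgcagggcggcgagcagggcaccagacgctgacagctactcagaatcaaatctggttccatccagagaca
Each window holds 1 such match, with the same letters in both genes. Both windows of Dnajb1 held 0 such matches, as did the Hspd1 window at 55088194 to 55088493 on chromosome 1.

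Hspa1a and Hspa1b were rare mRNAs. In all ECs Hspa1a was at 54.6, 96.0 and 149.7 CPM in eNOS+/+ replicates 1 to 3 and at 55.3, 36.3 and 32.8 CPM in eNOS-/- replicates 1 to 3. Hspa1b was at 59.4, 59.4 and 78.8 CPM and at 65.2, 38.8 and 28.7 CPM, respectively. The genotypes overlapped for both genes in all ECs, because eNOS-/- replicate 1 lay above eNOS+/+ replicate 1. Their ranges in mural cells, neuroglia, Optc+ cells and rods overlapped those in ECs.

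Neurons stood at the bottom, with 1 Hspa1a UMI and 2 Hspa1b UMIs among 562286. The pooled Hspa1a level of neurons was 1.78 CPM (exact binomial 95% interval 0.0450 to 9.91), below the 69.0 CPM (63.4 to 74.9) of all ECs. Immune cells had 1 Hspa1a and 3 Hspa1b UMIs among 167465. A UMI of Hspa1a was found in 5.13% of ECs at a median of 682 UMIs per cell and in 1 of 690 neurons (0.145%) at a median of 579. With cells of at least 500 UMIs thinned to that depth, the shares were 3.11% and 0.0536%, and that of rods was 2.44%.

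Transcripts of the neighbouring genes occurred in the same ECs. A Hspa1a UMI was found in 304 ECs, a Hspa1b UMI in 280 and both in 104. Among the ECs with Hspa1a 34.2% also had Hspa1b, against 3.13% of the other ECs, and the former share was the higher in each of the 6 replicates (16.7% to 54.5% against 1.94% to 4.93%). ECs with Hspa1a were deeper, with a median of 1906 against 644 UMIs, and the part of depth in this overlap was not tested. A single EC held up to 19 UMIs of both genes together, and the 1% of ECs with the most UMIs of a gene held 46.1% of its UMIs for Hspa1a and 45.2% for Hspa1b, against 35.3% for Dnajb1, which was found in a similar number of ECs (275), and 8.91% for the abundant Hspa8. The last 500 bases of the Hspa1a transcript share 0 of 470 stretches of 31 bases with any other gene, so no such stretch was common to both genes.

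Hspa8, the constitutive HSP70, was present at similar levels in most cell types. It was at 877, 1082 and 1495 CPM in eNOS+/+ ECs and at 869, 1092 and 1055 CPM in eNOS-/- ECs, with eNOS+/+ replicate 3 above the rest. Its means ran from 534 ± 139 CPM in rods (SD, n = 4) to 1260 ± 140 CPM in mural cells (SD, n = 5). The single cone sum had 1267 CPM, and a higher mean in immune cells rested on eNOS+/+ replicate 3 (2825 CPM, against 938 and 1041 CPM). Dnajb1, the HSP40 partner of the inducible HSP70 proteins, was low everywhere: 26.7, 59.4 and 49.9 CPM in eNOS+/+ ECs and 32.0, 41.2 and 47.1 CPM in eNOS-/- ECs. Its highest mean was in neuroglia, at 115 ± 41.2 CPM (SD, n = 3), from sums with only 3, 2 and 9 Dnajb1 UMIs. In 2 of these 3 replicates it lay above every EC sum, which reached 74.8 CPM at most.

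Hspa5, which guides folding in the ER, was highest in mural cells and, within ECs, in Tip ECs. In Tip ECs it was at 1295, 1677 and 1044 CPM in eNOS+/+ replicates and at 1029, 1205 and 1066 CPM in eNOS-/- replicates. Structural ECs had 674, 972 and 809 CPM and 743, 982 and 946 CPM. Tip ECs exceeded both other subtypes in each of the 6 replicates. In mural cells it reached 1476 ± 367 CPM (SD, n = 5), in immune cells 1459 ± 62.4 CPM (SD, n = 3) and in rods 502 ± 158 CPM (SD, n = 4). Immune sums left out for their size had 487 CPM in eNOS+/+ replicate 1 and 459 CPM in eNOS-/- replicate 3, from 4 and 7 UMIs. The pooled level of immune cells was 1320 CPM, further from the mean than that SD. Mural and immune cells did not differ beyond their spread. Its promoter is shown for the ER stress element, CCAAT and CCACG with 9 free bases between them on either strand, in capitals, which 0.119% of the 32851 promoters hold.
Hspa5, chr2:34771840-34772139, plus strand: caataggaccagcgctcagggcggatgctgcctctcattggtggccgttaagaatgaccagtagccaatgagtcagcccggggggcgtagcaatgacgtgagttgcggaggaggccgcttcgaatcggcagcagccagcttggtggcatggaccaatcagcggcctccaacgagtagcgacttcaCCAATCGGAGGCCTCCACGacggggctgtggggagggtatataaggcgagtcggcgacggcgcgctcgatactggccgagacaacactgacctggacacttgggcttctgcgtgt
Of the 9 promoter windows of member genes in the table, this was the only window with that element, and it held 0 matches to the heat shock element pair.

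Hspb1 had its highest means in mural cells and ECs, and its pooled level was lower in neurons, rods and neuroglia. All ECs had 94.6, 112.7 and 233 CPM in eNOS+/+ replicates and 37.6, 39.2 and 205 CPM in eNOS-/- replicates. Mural cells had 265 ± 112 CPM (SD, n = 5), the highest mean of the 10 cell types. Neuroglia had 0 UMIs among 136364, which allows up to 22.0 CPM, neurons had 4 among 562286, and rods had 2 among 656387, both in the rods of eNOS+/+ replicate 3. The rods (95.2 CPM) and neurons (39.6 CPM, 2 UMIs) of that replicate lay above the ECs of eNOS-/- replicates 1 and 2, so the ranges of single sums overlapped. Optc+ cells had 106 and 79.3 CPM in eNOS+/+ replicates 2 and 3, from only 5 and 7 UMIs. In eNOS-/- replicates 1 and 2 they had 0 UMIs among 32196 and 48671. No genotype difference is read from counts this small. Cones had 0 among 54093, which allows 55.5 CPM. A Hspb1 UMI was found in 8.35% of ECs, 7.01% of Optc+ cells and 13.6% of mural cells, but in 2 of 1508 rods (0.133%, exact binomial 95% interval 0.0161% to 0.478%). Rods were shallower, with a median of 361 UMIs against 682 in ECs and 828 in mural cells, and after thinning to 500 UMIs the shares were 4.48% in ECs, 9.07% in mural cells and 0.123% in rods.

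The promoter of Hspb1 is shown with its 2 matches to the heat shock element pair in capitals.
Hspb1, chr5:135887669-135887968, plus strand: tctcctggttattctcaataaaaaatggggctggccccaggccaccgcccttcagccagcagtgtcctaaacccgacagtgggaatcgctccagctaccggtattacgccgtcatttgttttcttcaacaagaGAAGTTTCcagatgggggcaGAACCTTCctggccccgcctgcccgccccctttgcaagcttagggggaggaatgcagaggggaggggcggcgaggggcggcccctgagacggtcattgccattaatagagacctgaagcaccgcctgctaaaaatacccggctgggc
Within ECs, Hspb1 followed the subtype and the replicate. Proliferative ECs were lowest in 6 of 6 replicates (29.0, 81.0 and 166 CPM; 20.9, 22.0 and 89.5 CPM), and Tip ECs highest in 5 of 6 (166, 150 and 276 CPM; 51.8, 43.3 and 288 CPM). In all ECs the highest eNOS-/- replicate was 4.51 times the lowest, on the scale of CPM plus 10, where the median of all genes tested was 1.37.

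Other gene groups moved between the same replicates. The summed level of 17 immediate early genes, many of which rise while tissue is dissociated, was 3074, 4660 and 5230 CPM in ECs of eNOS+/+ replicates and 3405, 3017 and 6419 CPM in ECs of eNOS-/- replicates. It was highest in eNOS-/- replicate 3 and eNOS+/+ replicate 3, where Hspb1 was highest too. Mural cell markers (Pdgfrb, Rgs5, Kcnj8, Cspg4 and Acta2, 5 of 5 in the table) summed to 8.49 to 51.9 CPM in eNOS+/+ ECs, and to 20.7, 88.6 and 2160 CPM in eNOS-/- ECs. In eNOS-/- replicate 3 these markers were at 3726 CPM within Structural ECs and at 238 CPM within Tip ECs. Hspb1 was at 194 and 288 CPM there, respectively. In the other replicates these markers were at 12.5 to 158 CPM in Structural ECs and at 4.61 to 48.1 CPM in Tip ECs. The part of either group in the Hspb1 level was not tested.

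**Figure D3:**
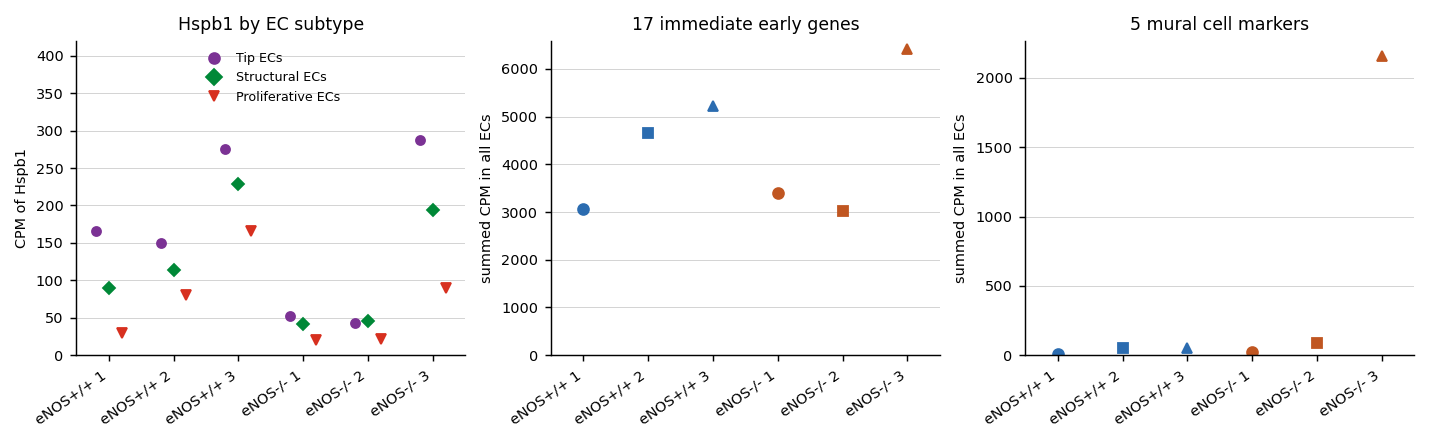
Left, CPM of Hspb1 in the 3 EC subtypes of each replicate; middle, summed CPM of 17 immediate early genes in all ECs; right, summed CPM of 5 mural cell markers in all ECs. Hspb1 and the immediate early genes are both highest in eNOS+/+ replicate 3 and eNOS-/- replicate 3, and the mural cell markers stand out in eNOS-/- replicate 3 alone.

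Hspd1 and Hspe1, the subunits of the mitochondrial chaperonin, lie head to head on chromosome 1 (55077835 to 55088243 on the minus strand, and 55088132 to 55091307 on the plus strand), and their annotations overlap by 112 bases. The Hspe1 promoter window shares 285 bases with 1 of the 2 windows of Hspd1. It lies within the annotated span of Hspd1, before an alternative start of that gene. It is shown because it holds 2 matches to a heat shock element of 3 inverted units, each GAA or TTC with NN between units, which 0.603% of promoters hold. The capitals cover these and 3 matches to the 2-unit pair, all overlapping.
Hspe1, chr1:55087898-55088197, plus strand: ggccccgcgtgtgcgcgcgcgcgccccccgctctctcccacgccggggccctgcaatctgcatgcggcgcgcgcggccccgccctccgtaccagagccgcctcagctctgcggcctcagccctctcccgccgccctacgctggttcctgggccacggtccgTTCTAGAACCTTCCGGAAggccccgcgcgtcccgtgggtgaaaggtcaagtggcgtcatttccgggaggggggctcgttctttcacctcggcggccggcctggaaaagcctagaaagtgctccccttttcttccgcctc
Hspd1 was at 160, 139 and 125 CPM in eNOS+/+ ECs and at 165, 167 and 154 CPM in eNOS-/- ECs. Hspe1 was at 167, 186 and 160 CPM and at 202, 191 and 227 CPM. The genotypes overlapped for Hspd1. For Hspe1 every eNOS-/- replicate lay above every eNOS+/+ replicate, as for 5.39% of all genes tested. Mural cells had the highest means of both genes, 361 ± 104 CPM for Hspd1 and 306 ± 105 CPM for Hspe1 (SD, n = 5), and rods the lowest, 105 ± 71.0 and 61.9 ± 28.8 CPM (SD, n = 4). The low rod mean of Hspd1 rested on eNOS+/+ replicate 3, with 0 UMIs in a sum of 20998. The other rod sums had 143, 124 and 153 CPM. Pooled over replicates, Hspd1 was at 139 CPM in rods and at 129 CPM in Tip ECs, so rods were not its lowest cell type by that measure. Over the 18 sums of EC subtype and replicate the levels of both genes had a Pearson r of 0.63 on the log2 scale, which is given as a description since sums of the same replicate share a library. For Hspa1a and Hspa1b this was 0.66, the highest of the pairs among the 10 genes, and for Hsp90ab1 and Hspb1 it was -0.59, the lowest.

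Among the EC subtypes, 3 of the 10 genes kept their place in all 6 replicates. Hsp90aa1 was highest in Proliferative ECs, at 551, 400 and 485 CPM in eNOS+/+ and 547, 485 and 614 CPM in eNOS-/- replicates, which 5.41% of 6852 genes compared were. Hspa5 was highest in Tip ECs, as were 4.85% of these genes, and Hspb1 was lowest in Proliferative ECs, as were 2.1%. No member was lowest in Tip ECs in all 6 replicates (4.58% of genes), and none was highest (1.63%) or lowest (0.642%) in Structural ECs. In 5 of 6 replicates, Proliferative ECs held the highest level of Hspa8, of Hsp90ab1 and of Hspe1, and the lowest of Hspa1b. Also in 5 of 6, Tip ECs were highest for Hspb1 and lowest for Hsp90ab1. Structural ECs were highest for Hspa1b and lowest for Hspa5 in 5 of 6. The share of all genes with a place in 5 of 6 replicates was not counted, so nothing is read from these places. Because the subtypes were defined on these UMIs, these places describe the clusters and were not tested.

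Next, the genotypes were compared in the summed ECs. Because the 10 genes were selected with these values known, their fitted changes are given as a description with no p-value, and nothing is read from how many were called. With edgeR's quasi-likelihood test and Benjamini-Hochberg adjustment over all 9483 genes tested, 2 genes (0.0211%) were called in all ECs, and 0 of the 10 heat shock genes were among them. At an unadjusted p under 0.05 there were 548 genes, and DESeq2 called 3 genes and 0 members. Hspa1a had a mean of 100.1 ± 47.7 CPM in eNOS+/+ and 41.4 ± 12.1 CPM in eNOS-/- ECs (SD, n = 3). Its fitted log2 change was -1.27 with a standard error of 0.33, and -0.79 without eNOS+/+ replicate 3. The fitted log2 change of Hspb1 was -0.88 with a standard error of 0.55, and that of Hspa1b was -0.54 with a standard error of 0.28. The other 7 genes lay between -0.23 (Dnajb1) and 0.26 (Hspe1). The median log2 fold change of the 10 genes was -0.15, with 4 above 0 and 6 below, and that of all genes tested was 0.01.

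**Figure D4:**
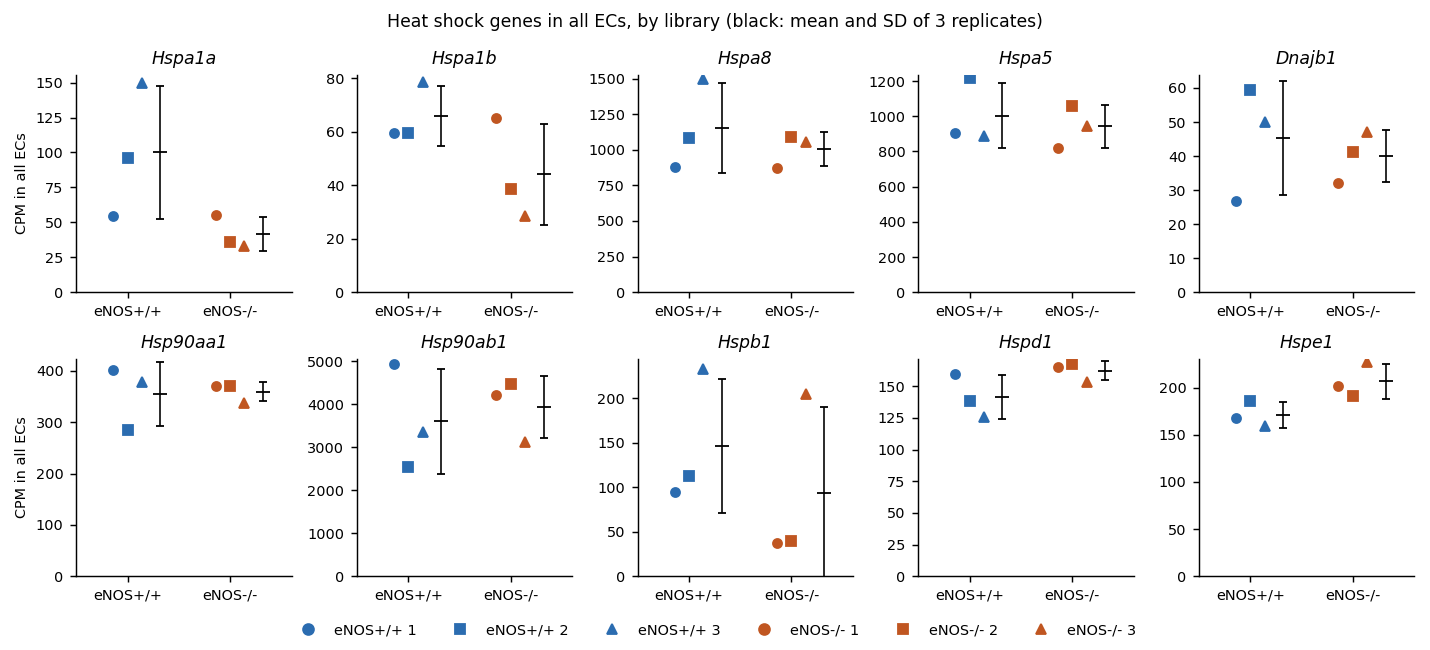
CPM of each gene in all ECs of each replicate (blue, eNOS+/+; orange, eNOS-/-), with the mean and SD of 3 replicates in black; each vertical axis starts at 0. The genotypes overlap in 9 of the 10 genes. In Hspe1 every eNOS-/- replicate lies above every eNOS+/+ replicate, as in 5.39% of all genes tested.

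Every eNOS-/- replicate lay above every eNOS+/+ replicate for 1 of the 10 genes, Hspe1, and below for none. Of all genes tested, 5.39% lay above and 5% below in this way. In Structural ECs, Hspa1a (84.8, 97.2 and 179 CPM against 56.7, 31.3 and 33.6 CPM) and Hspa1b (77.4, 72.9 and 94.5 CPM against 70.7, 38.5 and 41.1 CPM) lay below in every replicate, where 4.79% of the genes tested did, and Hspe1 lay above, where 5.74% did. Structural ECs were also the EC subtype with the most B cell and red blood cell markers, and the part of this was not tested. In Tip ECs (5.41% below, 4.94% above) and in Proliferative ECs (5.43% below, 5.36% above) all 10 genes overlapped between the genotypes.

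The test called 1 gene in Tip ECs (0.0181% of 5510), 2 in Structural ECs (0.0264% of 7577) and 1 in Proliferative ECs (0.0217% of 4607), and 0 of the 10 genes in each, although all 10 were tested in every comparison. For Hspa1a the log2 change was -1.59 in Structural ECs with a standard error of 0.35, -1.21 in Tip ECs (-0.76 without eNOS+/+ replicate 3) and -0.31 in Proliferative ECs. These values do not show that the subtypes differ: the test of a genotype by subtype interaction called 0 of 7019 genes (0%; 241 at an unadjusted p under 0.05, and 0 by DESeq2). Hspb1 had log2 fold changes of -1.06, -0.92 and -1.74 in Tip, Structural and Proliferative ECs, none of them called.

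**Figure D5:**
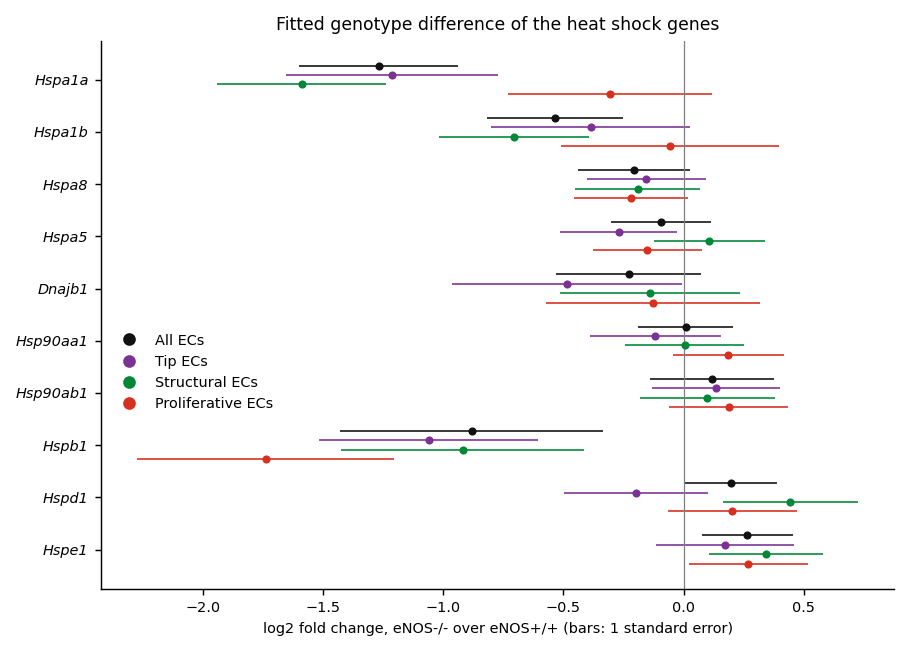
Log2 fold change of each gene between eNOS-/- and eNOS+/+ replicates, fitted by edgeR in all ECs and in each EC subtype, with 1 standard error. Hspa1a and Hspb1 are among the genes that lie below 0 in all 4 fits, and none of the values shown was called.

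The values of Hspb1 and Hspa1a depended on single replicates and on the filter. In all ECs the log2 change of Hspb1 was -0.32 when eNOS+/+ replicate 3 was left out. It was -0.42, -0.44 and -2.00 when eNOS-/- replicate 1, 2 or 3 was left out, respectively. In the same order of these 4 fits it was -0.65, -0.59, -0.49 and -2.11 in Tip ECs, -0.31, -0.48, -0.54 and -1.84 in Structural ECs, and -0.90, -1.35, -1.41 and -2.12 in Proliferative ECs. It lay below 0 in each of these fits. Only without eNOS-/- replicate 3 did leaving out a replicate bring Hspb1 past the adjusted limit, in all, Tip and Proliferative ECs but not in Structural ECs. In that setting 78 of 10468 genes (0.745%), 25 of 7076 (0.353%), 73 of 5237 (1.39%) and 28 of 8828 (0.317%) were called in all, Tip, Proliferative and Structural ECs, respectively. It leaves 2 eNOS-/- replicates, with 37.6 and 39.2 CPM of Hspb1 in all ECs, against 94.6 to 233 CPM. The replicate left out held 205 CPM, the highest of its genotype. Without a filter on low counts, Hspa1a passed the limit in all ECs (log2 change -1.24) and Structural ECs (-1.56), and Hspb1 in all ECs (-0.89). In that setting 0.429% of genes were called in all ECs, 0.396% in Structural ECs, 0.0476% in Tip ECs and 0.0601% in Proliferative ECs, and the median log2 fold change of all genes in all ECs was 0.14. Nothing is read from Hspa1a or Hspb1 passing the limit in any setting, as the members were selected with their levels known.

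Replicates of the same genotype spread unevenly over the 10 genes. The SD of log2(CPM + 10) around the genotype means in all ECs was 0.99 for Hspb1, more than for 99.7% of all genes tested, and 0.52 for Hspa1a, more than for 94.3%. The mitochondrial chaperonin genes were the steadiest, at 0.13 for Hspd1 and 0.11 for Hspe1, more than 6.63% and 4.95% of genes, respectively. The median over all genes tested was 0.27. Hsp90ab1, at a mean level far above that of the other members, still had an SD of 0.39, with 4931, 2529 and 3344 CPM in eNOS+/+ and 4207, 4478 and 3121 CPM in eNOS-/- replicates.

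Other chaperone genes were read from lists drawn up with earlier results of these data known. In all ECs, 0 of 27 tested cytosolic chaperones and co-chaperones (median log2 fold change 0.04), 0 of 8 subunits of the cytosolic chaperonin (0.26), 0 of 18 genes of ER chaperones and the unfolded protein response (-0.12), 0 of 8 mitochondrial chaperones and proteases (-0.03) and 0 of 2 heat shock factors were called. The 17 immediate early genes also had 0 calls (-0.02). Fkbp4, an immunophilin co-chaperone of HSP90, had the smallest p of the cytosolic list, at 81.2, 92.9 and 64.4 CPM against 50.5, 51.9 and 41.0 CPM (log2 fold change -0.69, adjusted p = 0.824 by edgeR). Cdc37, which brings kinases to HSP90, was at 263, 291 and 208 CPM against 369, 367 and 303 CPM (log2 fold change 0.45). The genotypes did not overlap for either gene, as for 5% of all genes tested below and 5.39% above, and both genes were named for their small p or extreme change. Xbp1, a transcription factor of the unfolded protein response, had the smallest p of the ER list, at 95.8, 115.8 and 118.2 CPM against 73.0, 62.3 and 94.2 CPM, and Ddit3 had the highest log2 fold change (0.70) and Sdf2l1 the lowest (-0.88). Hspbp1, which removes nucleotide from HSP70, was the lowest of the cytosolic list (-0.87). Cct4 was highest (0.35) and Cct8 lowest (-0.06) among the chaperonin subunits, Trap1 highest (0.35) and Timm44 lowest (-0.19) among the mitochondrial genes, and the heat shock factors Hsf1 and Hsf2 had -0.38 and -0.22. Among the immediate early genes Fos was highest (0.37) and Socs3 lowest (-0.73), and Jund had the smallest p.

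For each gene, the transcripts with the most similar levels over the 18 sums of EC subtype and replicate were found among 6832 genes with a mean of at least 20 CPM. These correlations are descriptions, as the sums share libraries, depth and, within a replicate, free RNA. Hsp90ab1 was followed most closely by Rack1, Eef1b2, Rplp1, Rps21 and Cdc5l (Pearson r 0.95 to 0.88), of which Rack1, Rplp1 and Rps21 encode ribosomal components and Eef1b2 an elongation factor. Hsp90aa1 was followed by Mns1, Slc43a3, Cenpl, Knstrn and 2700099C18Rik (0.89 to 0.86), among which Cenpl and Knstrn act at the kinetochore. Hspa5 was nearest to Actb, Creld2, Tpm4, Spsb1 and Prr13 (0.84 to 0.81), of which Creld2 is an ER protein of the unfolded protein response. Hspb1 was nearest to Jund, Tprgl, Ctnnbip1, Rapgef4 and Tgfb1 (0.87 to 0.85). Hspd1 was nearest to Cct3, a cytosolic chaperonin subunit, then to Tubg1, Mat2a, Med19 and Slf1 (0.80 to 0.77), and Hspe1 to Nbn, Orc2, Ncbp1, Lsm3 and Chchd1 (0.82 to 0.81). Dnajb1 was nearest to Gps1, Pwwp3a, Gtf2h3, 4921524J17Rik and Sh2b1 (0.87 to 0.78), and Hspa8 to Swi5, BC051077, Exosc2, Cfl1 and Dct (0.69 to 0.67). Hspa1a was nearest to Chmp1a, mt-Co3, mt-Atp6, Rab5c and Bag6 (0.80 to 0.73), Hspa1b to Atxn2l, Vat1, Tnks1bp1, Borcs7 and Bbx (0.86 to 0.78), and their sum to mt-Co3, Kank3, Gnaq, Chmp1a and Eif4ebp2 (0.76 to 0.73).

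Several of these genes have processed copies in the genome, so that reads from their 3' ends can be uncertain. Of the stretches of 31 bases in the last 500 bases of coding transcripts, 73.4% were shared with other annotated genes for Hspa8 (most with Gm15459), 68.5% for Hspe1, 45.0% for Hspb1 (all with Hsp25-ps1), 40.8% for Hspd1 (most with Hspd1-ps3), 28.3% for Hsp90aa1 and 9.67% for Hsp90ab1. Hspa1a, Hspa5 and Dnajb1 shared 0, and Hspa1b shared 2.15%. The levels of Hspa8, Hspe1, Hspb1 and Hspd1 therefore depend most on how reads that match more than 1 gene were assigned, which is not given in the sources used here.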

How the data were processed

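Drop-seq libraries of 3 eNOS+/+ and 3 eNOS-/- replicates of CD31-enriched retinal cells were read from a table of UMI counts per gene and cell and a table of cell annotation. The authors deposited raw counts, which they had made by aligning reads with kb-python to GRCm38 and, with Seurat 3, removing cells with few genes and contaminating clusters, merging the replicates into 1 matrix, integrating them for clustering, and naming the cell types and EC subtypes. A column of the annotation gives the replicate of each cell. The percent of mitochondrial UMIs per cell was calculated by the authors with Seurat and used by them as a limit on cells, and it reached 9.99% in the deposited cells. Another 11 columns of the annotation were not used here, and 0 columns of per-sample values were left over. How doublets were treated is not given in the sources used here, and no doublet caller was run.

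The 8944 cells held 10361314 UMIs of 20822 genes. Cells are not replicates, so UMIs were summed per cell type and replicate and the 6 sums, 3 of each genotype, were tested with edgeR 4.0.16 (quasi-likelihood test, its filter on low counts, TMM scaling, Benjamini-Hochberg over all genes tested, adjusted p limit 0.05). The interaction was fitted over 18 sums with the library as a factor. The replicates are separate pools of retinas, and p-values measure the spread between pools. Logarithms of CPM used a pseudocount of 10 CPM. UMIs tag 3' ends, so that no scaling by transcript length was made. Intervals are exact binomial and a count of 0 was taken to allow 3 counts. Intervals and limits cover counting error only. Tests were checked on simulated counts.

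Alternatives were DESeq2 1.42.0, RLE scaling, no filter on low counts, cells of at least 500 UMIs, the replicate number as a block, each replicate left out, pooled sums, thinned cells and barcode families. The members, and the lists of other chaperones and markers, were chosen with earlier results of these data known. All 10 members were named, and of the other lists only the gene of smallest p and the highest and lowest by log2 fold change in all ECs. Genes of similar pattern were the 5 with the highest Pearson r of log2(CPM + 10). Promoter sequences were taken from RefSeq (GRCm38.p6), whose table matched 7 of the 10 members in 9 windows. Hspa8, Hsp90aa1 and Hsp90ab1 had no entry. Positions and transcript ends came from GENCODE on GRCm38.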

Additional observations from a re-analysis of the deposited data

How the results depend on the processing

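Of 40 log2 fold changes of members in the 4 comparisons, 23 kept their sign under every alternative run and 17 did not, all 17 uncalled. The counts of called genes (2 in all ECs, 1 in Tip, 2 in Structural and 1 in Proliferative ECs, and 0 for the interaction) were 84, 8, 74, 10 and 4 without a filter on low counts, where more genes were tested. With cells of at least 500 UMIs they were 1 in all ECs, 2 in Tip ECs and 0 in Structural ECs, and DESeq2 called 2 in Tip ECs. Leaving out each replicate in turn gave 0 to 78 calls for all ECs, 0 to 25 for the Tip subtype, 0 to 28 for the Structural subtype and 0 to 73 for the Proliferative subtype, each highest without eNOS-/- replicate 3. The cause of these changes was not tested.

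Leaving out a replicate turned the sign of small log2 fold changes. In all ECs the values ran from -0.36 to 0.051 for Hspa8, -0.18 to 0.054 for Hspa5, -0.13 to 0.11 for Hsp90aa1 and -0.088 to 0.42 for Hsp90ab1. In Tip ECs they ran from -0.32 to 0.11 for Hspa8, -0.26 to 0.23 for Hsp90aa1, -0.077 to 0.45 for Hsp90ab1 and -0.39 to 0.051 for Hspd1. In Structural ECs they ran from -0.36 to 0.15 for Hspa8, -0.015 to 0.23 for Hspa5, -0.41 to 0.17 for Dnajb1, -0.20 to 0.22 for Hsp90aa1 and -0.12 to 0.39 for Hsp90ab1. In Proliferative ECs they ran from -0.61 to 0.024 for Hspa1a, -0.57 to 0.065 for Hspa1b, -0.23 to 0.027 for Dnajb1 and -0.010 to 0.47 for Hsp90ab1. Hsp90aa1 also fell below 0 with cells of at least 500 UMIs (-0.038 in all ECs, -0.091 in Structural ECs) and, in Structural ECs, with DESeq2 (-0.0036) and RLE scaling (-0.0034).

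The replicate number as a block gave 2 calls for all ECs, 1 for the Tip, 11 for the Structural and 3 for the Proliferative subtype, and turned Dnajb1 in Structural ECs to 0.019. Same-numbered replicates deviated together with correlations of 0.13, -0.07 and 0.11, and eNOS+/+ replicate 1 correlated best with eNOS-/- replicate 2 (0.13), so the numbers were not taken as a pairing. Pooled sums moved 2 mean CPM values by more than their spread, Hspa5 in immune cells and Hspa1a in neuroglia, and left 98 unmoved. Cells of at least 500 UMIs moved 1, Hspa5 in immune cells (to 1549 CPM), and left 99 unmoved. Leaving out 1 replicate cannot shift a mean by more than the SD over all of its replicates. Those values were therefore unmoved by arithmetic and say nothing about stability. Of the shares of cells with a UMI, 67 moved and 33 did not when cells were thinned to 500 UMIs, and 27 moved and 73 did not when barcode families were counted as 1 cell.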
